A study of Mus musculus with 12 samples.

Results

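The 38 genes described here encode subunits of the receptors for glutamate and GABA (gamma-aminobutyric acid) in mouse cortex. They were chosen by name and level: 45 protein-coding genes in the deposited tables have a symbol of the AMPA (Gria), kainate (Grik), NMDA (Grin), delta (Grid), metabotropic glutamate (Grm), GABA-A (Gabr) or GABA-B (Gabbr) receptor families, and 38 of them averaged at least 1 TPM (a transcript level scaled to library depth and transcript length) over the 12 libraries, out of 55487 genes listed in all. Of these 38, 24 are glutamate receptor genes and 14 are GABA receptor genes. The other 7 averaged less: Gabrr2 0.531 TPM, Grin3b 0.295 TPM, Gabre 0.0442 TPM, Gabrr1 0.0417 TPM, Grm6 0.00667 TPM, and Gabra6 and Gabrr3 0.00167 TPM each. The threshold cut through no crowded range, since 36 of the 38 averaged at least 5 TPM. All 38 passed the filter on low counts, and the smallest count of any of them in any library was 98 (Grin2d).

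RNA was collected from cortical tissue 2 hr after controlled cortical impact (CCI), a blow by a driven tip to the opened skull, on the struck (ipsilateral) side and on the opposite (contralateral) side. There were 4 groups of 3 libraries. The wt mice were CX3CR1cre-er/+, and the cKO mice were CX3CR1cre-er/+ STING fl/fl, so every animal carried the Cre allele and had an injury, and no uninjured group was analysed here. The Cx3cr1 gene drives Cre in microglia and in monocytes, and STING is an adaptor protein of the innate response to cytosolic DNA. The series description writes the allele of the floxed animals as CX3CR1cre/+, and the labels mention neither tamoxifen nor strain, age or sex. Whether the 3 libraries of a group are 3 animals is not stated. If they are not, the p-values reflect only the variation among these libraries, which may be technical. Contralateral and ipsilateral libraries of the same number may come from 1 animal. The comparisons did not pair them except where a replicate block is named. The transcript of the targeted gene, Tmem173, ran from 2.34 to 3.69 CPM (counts scaled to library depth, not to length) in wt libraries and from 0.762 to 2.44 CPM in cKO libraries.

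Glutamate carries most fast excitation in cortex. AMPA, kainate and NMDA receptors are cation channels of 4 subunits, delta receptors resemble them but act mainly as synaptic organisers, and metabotropic receptors couple to G proteins. GABA carries most fast inhibition through GABA-A receptors, chloride channels built from alpha, beta and gamma or delta subunits, and slower inhibition through GABA-B receptors, G-protein-coupled pairs of Gabbr1 and Gabbr2. Neurons make most of these subunits, while Grin2c, Grm3 and Gabrg1 are also known from astrocytes.

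The promoters of Grin2c and Grm3 are shown because these were the receptor genes whose transcripts were called higher on the injured side. Each run is the 250 bases before the start given by RefSeq (GRCm38.p6), on the gene's own strand, and capitals mark the letters GGGCGG, a core bound by factors of the Sp1 kind (a GC box).
Grin2c promoter, chr11:115267244-115267493, minus strand: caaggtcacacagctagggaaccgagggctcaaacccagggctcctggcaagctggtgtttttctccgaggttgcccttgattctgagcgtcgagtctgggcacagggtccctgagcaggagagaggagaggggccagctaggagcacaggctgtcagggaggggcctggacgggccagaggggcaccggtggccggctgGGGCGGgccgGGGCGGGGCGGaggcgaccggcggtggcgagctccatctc
Grm3 promoter, chr5:9725353-9725602, minus strand: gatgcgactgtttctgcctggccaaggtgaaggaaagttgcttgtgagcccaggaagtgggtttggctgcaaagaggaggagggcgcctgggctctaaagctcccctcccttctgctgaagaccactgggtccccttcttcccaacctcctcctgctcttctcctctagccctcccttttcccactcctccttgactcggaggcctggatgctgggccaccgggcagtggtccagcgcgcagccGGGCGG
The Grin2c stretch held 3 overlapping or neighbouring GC boxes at 68.8% G and C, and the Grm3 stretch held 1 at 62.4%. The letters were searched on both strands. GC boxes were in 15 of 30 promoters of the 23 receptor genes with an entry, and in 32.7% of all 32851 promoters of this length; that motif was added after the sequences had been read. The AP-1 letters TGANTCA were in neither printed promoter, in 1 of the 30 (Grm8) and in 6.75% of all. The cyclic AMP element TGACGTCA (1.55% of all) and the EGR letters GCGTGGGCG (0.536% of all) were in none of the 30. Gria3 and Grm4 had no entry.

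Levels were compared between genes in TPM, as means over the 12 libraries. Gabbr1, the ligand-binding GABA-B subunit, led with 379 TPM (range 315 to 436) and was above every other receptor gene in all libraries. Grin1, the subunit that every NMDA receptor needs, followed with 234 TPM (178 to 277). Gabbr2 (119 TPM) and Grik5 (104 TPM) were lower, with ranges that overlapped each other. The AMPA subunits Gria2 (90.2 TPM), Gria1 (74.2 TPM) and Gria3 (62.5 TPM) had neighbouring levels, and Gria4 was lower at 34.3 TPM. At the lower end were Gabrg3 (5.91 TPM) and Grin2d (4.52 TPM), an NMDA subunit of interneurons. The Grin2d value is uncertain, because 9.66% of its exon length is shared with the opposite-strand gene Gm45441, listed at 13.8 TPM.

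**Figure D1:**
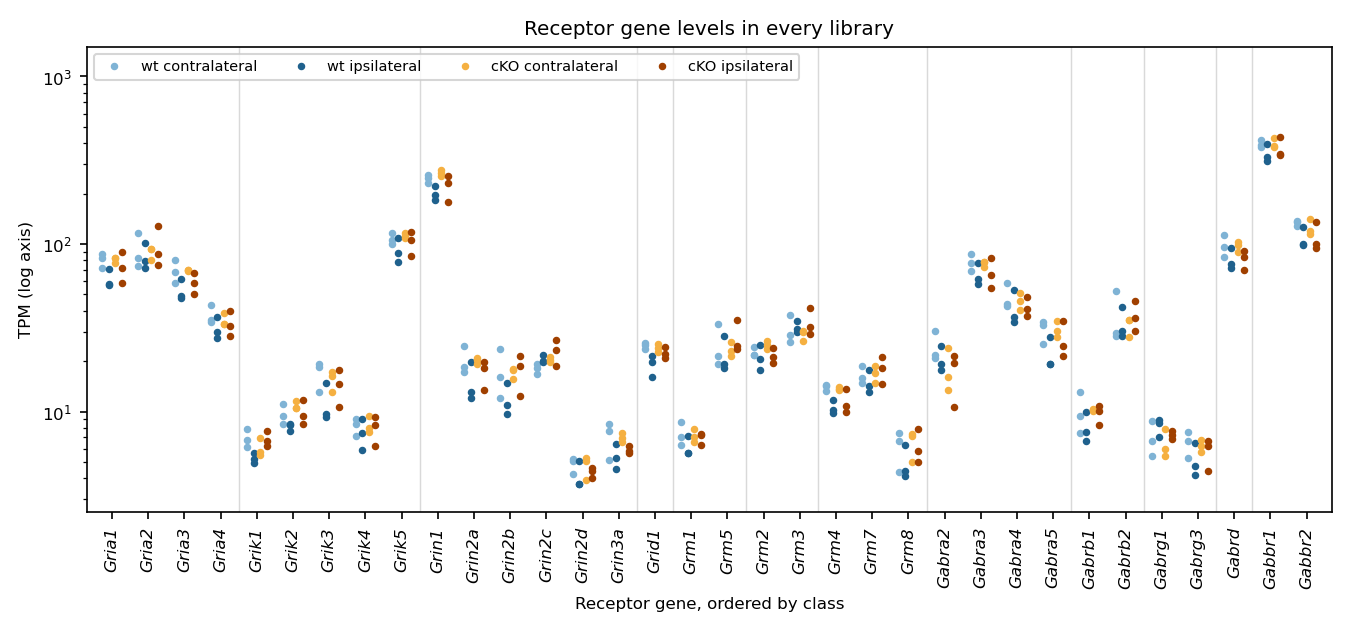
TPM (log axis) of 34 of the 38 receptor genes in each of the 12 libraries, 1 point per library, coloured by group and ordered by receptor class. Gabbr1 is highest in all libraries, and differences between genes are far larger than those between groups.

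In most classes 1 subunit held the bulk of the summed TPM. Grin1 made up 78.1% of the NMDA class over the 12 libraries (74.8% to 81.2% by library). Grik5, an auxiliary-type kainate subunit, made up 73.1% of its class (69.5% to 75.4%). Gabbr1 made up 76.1% of the GABA-B pair (74.3% to 78.2%). In the alpha class, Gabra3 stood at 22.0%, Gabra4 at 13.6%, Gabra5 at 8.44% and Gabra2 at 6.13%, and Gabrb2 held 31.9% of the beta class. Among the classes named here the AMPA class was the most even, with Gria2, the subunit that keeps calcium out of edited AMPA channels, at 34.5%, Gria1 at 28.4%, Gria3 at 23.9% and Gria4 at 13.2%. Among NMDA receptor partners of Grin1, the juvenile-type subunit Grin2b did not exceed the adult-type Grin2a by much in any library: the ratio of their TPM ran from 0.702 to 1.09.

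Depth, composition and library quality differed between libraries in ways that touch these genes. Totals ran from 20779210 to 33567194 counts in 11 libraries, and cKO ipsilateral library 3 held 7958931. Mitochondrial transcripts took 4.27% to 5.45% of counts in contralateral and 5.31% to 8.16% in ipsilateral libraries. The summed level of the red cell genes rose from at most 242 CPM in contralateral libraries to at least 597 CPM in ipsilateral ones, so changes between sides are given in CPM scaled by trimmed mean of M values (TMM).

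Of the 12 libraries, 1 stood apart for the receptors themselves, in its median deviation and in how many genes were highest there. In wt contralateral library 3, 29 of the 38 receptor genes were above the mean of the other libraries of its group, the median deviation over all 38 was 0.23 on the log2 scale, and 21 were at their highest of all 12 libraries. Gabrb2 was furthest above (0.81), then Grin2b (0.71), Gabrb1 (0.60) and Grm5 (0.57), whereas Grin2d (−0.39) and Gabrd (−0.38) were furthest below. The deviation went with annotated exon length at a Spearman rho of 0.51 over the 38 genes and 0.38 over 16818 genes. These values share 1 library, and the deviation is not a difference between groups. The count above group mates did not single out wt contralateral library 3. In wt ipsilateral library 1, 31 of the 38 were above, at a median of 0.13 and a rho of 0.33. Of these 38 genes, 3 were at their highest of all 12 there. In wt contralateral library 1, 8 were above, at a median of −0.17, and the rho over the 38 genes was −0.62. Where leaving out wt contralateral library 3 changed which receptor genes were called between sides, those genes are named.

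**Figure D2:**
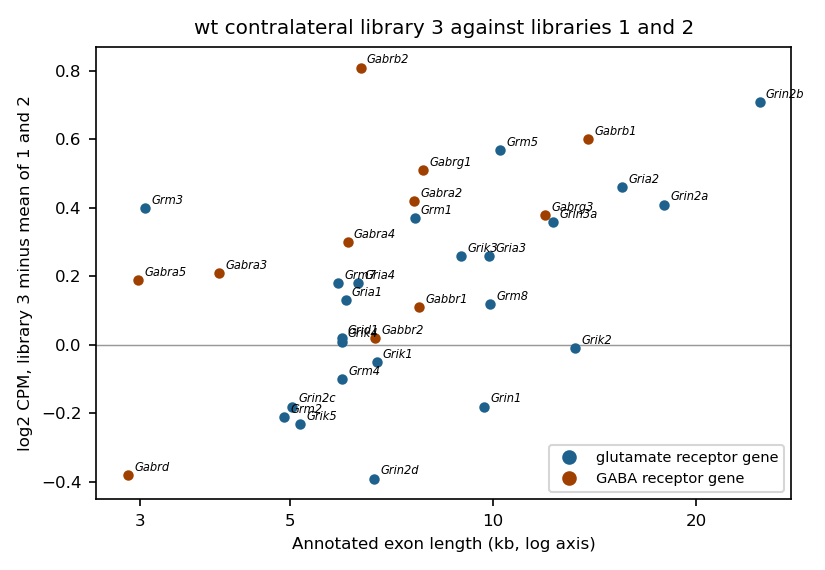
Log2 CPM in wt contralateral library 3 minus the mean of libraries 1 and 2 (y axis) against annotated exon length in kb (x axis, log), 1 point for each of 34 receptor genes, blue for glutamate and brown for GABA receptors. The longest gene, Grin2b (0.71), lies high and the shortest, Gabrd (−0.38), low, but genes of like length differ. The short genes Gabra5 (0.19), Gabra3 (0.21) and Grm3 (0.40) lie above 0, and the long Grik2 lies at −0.01. Gabrb2 (0.81) is above others of its length.

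The first question was whether receptor transcripts differed between the injured and the opposite cortex. Averaged over both genotypes, 4 of 38 receptor genes were called at a Benjamini-Hochberg adjusted p under 0.05 with edgeR's quasi-likelihood test over all genes. Grin2c and Grm3 rose and Gria3 and Grm4 fell, each by less than 1.5-fold. Among all 16836 genes tested, 5.99% were called higher and 2.03% lower. The receptors' 2 of 38 higher were near the share of genes at large. Their 2 of 38 lower lay above that share, on too few genes to be read as a difference. Estimates leaned down without being called: 29 of the 38 were below 0, at a median of −0.081 on the log2 scale, against −0.008 over all genes tested. At an unadjusted p under 0.05 there were 12, 3 higher and 9 lower, against 22.9% of all genes in either direction. The count below 0 was 32 with library totals in place of TMM and 33 on the TPM scale, where the median of all genes itself lay at −0.113. The lean depended on single libraries. Without wt contralateral library 3 the median was −0.03, with 26 below 0. Without wt ipsilateral library 1 it was −0.119, with 30 below 0, and the other single omissions lay between these medians.

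Grin2c encodes an NMDA receptor subunit whose receptors are blocked less by magnesium; its gene lies on chromosome 11 at 115249169 to 115267243 (GRCm38, minus strand). Its level was 51.2, 49.9 and 44.5 CPM in wt contralateral libraries 1 to 3 and 54.7, 72.2 and 66.6 CPM in wt ipsilateral ones. In cKO it was 53.2, 51.7 and 58.0 CPM contralaterally and 64.6, 58.9 and 64.7 CPM ipsilaterally. The sides did not overlap in either genotype, although wt ipsilateral library 1 and cKO contralateral library 3 came close to the other side. Grin2c rose 1.24-fold on average (log2 0.31 ± 0.07 SE, edgeR adjusted p = 0.0114), and it was the only receptor gene higher without overlap in both genotypes, as were 4.71% of all genes. The average was called without each of the 12 libraries in turn, at adjusted p from 0.00136 to 0.0374, but not by limma on log2(TPM + 1), where p was 0.282 after adjustment. Its share of the summed NMDA TPM was 5.74% ± 0.261 (SD, n = 3) contralaterally and 8.04% ± 1.07 ipsilaterally in wt, and 6.09% ± 0.177 and 7.94% ± 0.23 in cKO.

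Grm3 encodes a group II metabotropic receptor that lowers cyclic AMP and is found on both neurons and astrocytes. It measured 50.1, 51.2 and 67.0 CPM in wt contralateral libraries 1 to 3 and 65.6, 69.4 and 67.3 CPM in wt ipsilateral ones. In cKO it measured 55.8, 52.0 and 49.1 CPM contralaterally and 60.5, 62.1 and 67.2 CPM ipsilaterally. The sides were apart in cKO, whereas in wt the third contralateral library reached the ipsilateral range. Grm3 rose 1.2-fold on average (log2 0.27 ± 0.07 SE, edgeR adjusted p = 0.0307). The call was lost without any 1 of 8 libraries (wt contralateral 1 or 2, wt ipsilateral 2 or 3, cKO contralateral 2 or 3, cKO ipsilateral 2 or 3), at adjusted p up to 0.0856 with edgeR, and p was 0.000456 without wt contralateral library 3. With limma on log2(TPM + 1) it was 0.436. Its group II partner Grm2, a mainly presynaptic receptor, had an average log2 difference of 0.00 ± 0.07 SE.

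Gria3, an AMPA subunit on the X chromosome, measured 193, 210 and 240 CPM in wt contralateral libraries 1 to 3 and 199, 182 and 182 CPM in wt ipsilateral ones. In cKO it measured 221, 210 and 214 CPM contralaterally and 187, 180 and 179 CPM ipsilaterally. The cKO sides were well apart, and in wt the first library of each side crossed over. Gria3 fell by 13.9% on average (log2 −0.22 ± 0.05 SE, edgeR adjusted p = 0.0234). The call was lost without wt ipsilateral library 2 (edgeR adjusted p = 0.0711) or 3 (0.076), cKO contralateral library 1 (0.068) or cKO ipsilateral library 2 (0.0619), and with limma on log2(TPM + 1) (0.105).

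Grm4, a group III metabotropic autoreceptor of nerve terminals, measured 38.7, 36.1 and 34.9 CPM in wt contralateral libraries 1 to 3 and 30.3, 32.7 and 31.3 CPM in wt ipsilateral ones. In cKO it measured 35.9, 34.8 and 33.9 CPM contralaterally and 26.0, 31.9 and 30.7 CPM ipsilaterally. Every ipsilateral library was below every contralateral one. Grm4 fell by 14.9% (log2 −0.23 ± 0.06 SE, edgeR adjusted p = 0.0303). The call was lost without any 1 of 7 libraries (wt contralateral 1 or 2, wt ipsilateral 1 or 3, cKO contralateral 1 or 2, cKO ipsilateral 1), at adjusted p up to 0.0836 with edgeR, and with limma on log2(TPM + 1) (0.0872). Its group III relative Grm7, the most abundant of the class, had an average log2 difference of 0.09 ± 0.07 SE.

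**Figure D3:**
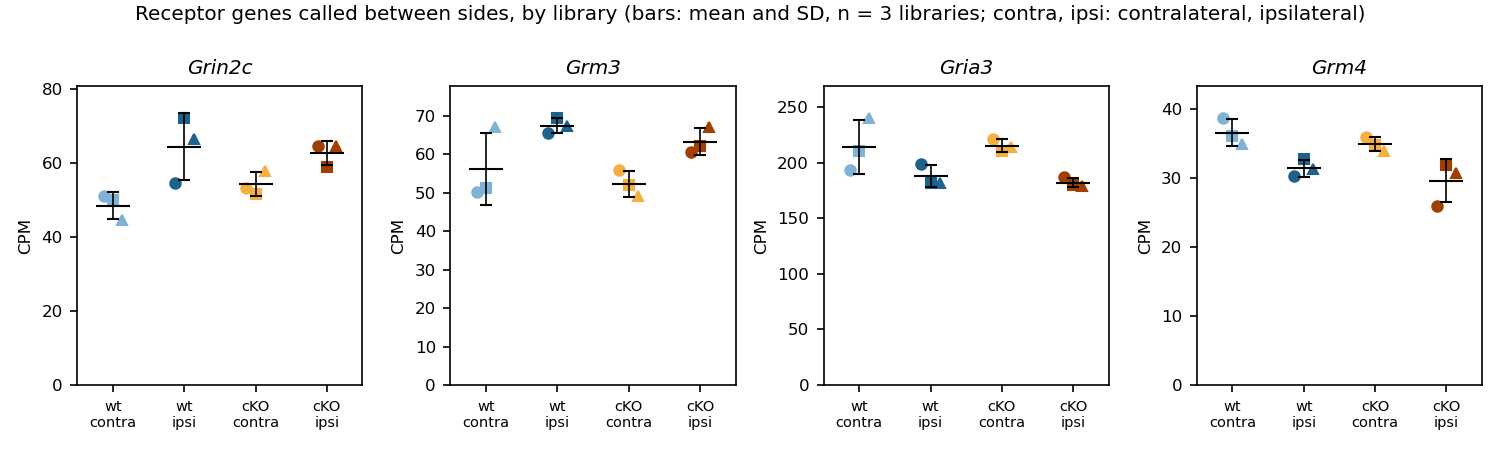
CPM (y axis, from 0) of Grin2c, Grm3, Gria3 and Grm4 in each library, by group; symbols stand for libraries 1 (circle), 2 (square) and 3 (triangle), and bars for the mean and SD of 3 libraries. Grm4 is lower in all 6 ipsilateral libraries, and Grm3 in wt contralateral library 3 (67.0 CPM) lies with the ipsilateral libraries.

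Other glutamate receptor genes did not pass the threshold on average. Grid1, a delta receptor that binds cerebellin at synapses, lay apart between sides in both genotypes: 81.9, 83.1 and 83.6 CPM against 74.2, 74.8 and 70.5 CPM in wt, and 79.1, 79.6 and 81.3 CPM against 75.3, 77.7 and 70.2 CPM in cKO. Its average log2 difference was −0.14 ± 0.04 SE (edgeR adjusted p = 0.063), and it was called with DESeq2 and with library totals, as was Gria1 (−0.15 ± 0.05 SE, edgeR adjusted p = 0.0751). Grid1 and Grm4 were the 2 receptor genes lower without overlap in both genotypes, as were 2.66% of all genes. Gria2 measured 271, 276 and 377 CPM against 352, 292 and 315 CPM in wt and 297, 313 and 330 CPM against 292, 287 and 334 CPM in cKO (log2 0.01 ± 0.08 SE), with the sides overlapping. Its share of the AMPA class was 32.4% ± 2.7 (SD, n = 3) against 36.5% ± 1.16 in wt and 32.3% ± 2.1 against 36.6% ± 2.53 in cKO, as a description without a test.

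Grin1 measured 616, 596 and 535 CPM against 544, 577 and 538 CPM in wt, and 632, 578 and 666 CPM against 575, 496 and 545 CPM in cKO, contralateral first. Only the cKO sides were apart, and narrowly (log2 −0.15 ± 0.05 SE on average, edgeR adjusted p = 0.117). A gene on the opposite strand, Grin1os, shares 13.47% of its exon length, and reads of the 2 cannot be told apart where strand was not used in counting. Grik5 measured 248, 251 and 213 CPM against 244, 239 and 210 CPM in wt, and 243, 245 and 251 CPM against 236, 223 and 223 CPM in cKO (log2 −0.08 ± 0.05 SE). Grm5, the main group I receptor of forebrain, measured 82.5, 90.4 and 128 CPM against 117, 91.7 and 90 CPM in wt, and 101, 102 and 94.4 CPM against 96.7, 107 and 91.7 CPM in cKO. Its difference was −0.01 ± 0.10 SE on the log2 scale, and sides overlapped in both genotypes. Grm7 measured 36.9, 38.0 and 42.5 CPM against 42.9, 38.9 and 41.8 CPM in wt, and 39.5, 41.5 and 35.5 CPM against 37.2, 49.6 and 39.2 CPM in cKO, again with overlap.

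On average over genotypes, edgeR with the low-count filter, all 12 libraries and no replicate block called 0 of the 14 GABA receptor genes. DESeq2 and limma-voom also called 0. An unadjusted p under 0.05 was found for 3 of them (Gabra5, Gabbr2 and Gabrg1) with edgeR, against 22.9% of all genes tested. Without the filter edgeR called Gabra5 and Gabrg1, among 1929 genes called in all. Of the 14, 12 had an average estimate below 0, against 51.8% of all genes tested. The 5 alpha subunits ran from −0.23 (Gabra5) to −0.05 (Gabra2) on the log2 scale. Gabra3, an alpha subunit on the X chromosome, averaged −0.11 ± 0.05 SE, and its sides were apart in cKO but not in wt.

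Gabrd, which forms extrasynaptic receptors for tonic inhibition, measured 129, 104 and 88.8 CPM against 107, 96.3 and 102 CPM in wt, and 98.5, 102 and 113 CPM against 96.8, 89.7 and 86.3 CPM in cKO (−0.14 ± 0.08 SE). Gabbr1 measured 760, 739 and 808 CPM against 786, 743 and 765 CPM in wt, and 753, 790 and 739 CPM against 692, 748 and 765 CPM in cKO, with overlap on both counts and an average of −0.03 ± 0.04 SE. The 2 GABA-A estimates above 0 were Gabrb2 (0.14 ± 0.13 SE) and Gabrg1, a gamma subunit of glia and immature neurons (0.25 ± 0.11 SE, edgeR unadjusted p = 0.0458 and adjusted p = 0.207). Both were called without wt contralateral library 3, when 7 receptor genes were called (Gabrb2, Gabrg1, Grin2c and Grm3 higher, Gria3, Grin1 and Grm4 lower). Calls over all genes rose as well in that fit, to 2075 from 1350 with all 12 libraries. Without wt ipsilateral library 3 Grin2c was the only receptor gene called, and 936 genes were called in all.

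Within the wt mice, 1 of 38 receptor genes was called. Grin2c rose 1.33-fold (log2 0.41 ± 0.10 SE, edgeR adjusted p = 0.0326), against 2.73% of all genes called higher and 0.184% called lower. That call was lost without wt contralateral library 2 (edgeR adjusted p = 0.101) or 3 (0.0634), wt ipsilateral library 2 (0.188) or 3 (0.125), or cKO contralateral library 1 (0.0521), with library totals (0.0859) with limma on log2(TPM + 1) (0.411) and in a fit of the 2 wt groups alone (0.107). Without wt contralateral library 3 the 1 receptor gene called was Grm3 (log2 0.41, edgeR adjusted p = 0.00514), among 861 genes in all. Without the low-count filter edgeR called Grin2b and Grik3 lower beside Grin2c, among 991 genes in all. The main fit called 491. At an unadjusted p under 0.05 there were 8 receptor genes, against 14.4% of all genes, 2 higher (Grin2c, Grm3) and 6 lower (Gria1, Gria3, Gabra5, Grid1, Grik3, Grm4). Grik3, a presynaptic kainate subunit, had the lowest estimate, at −0.39 ± 0.14 SE. CPM did not overlap between sides for 1 receptor gene higher and 4 lower (Gria1, Gabbr2, Grid1, Grm4), against 10.5% and 8.7% of all genes.

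Within the cKO mice, 0 of 38 receptor genes were called by edgeR, by DESeq2 or by limma-voom, against 2.56% of all genes called higher and 0.178% called lower. With edgeR 7 had an unadjusted p under 0.05, against 14.3% of all genes: Grm3 higher, and 6 lower, among them Gria3, Gabra3, Gabbr2, Grin1 and Grm4. The smallest was that of Gria3 (log2 −0.24 ± 0.08 SE, edgeR adjusted p = 0.142). Without wt contralateral library 3, Gria3 and Grm3 were called, among 579 genes in all, against 461 in the main fit. CPM did not overlap for 3 receptor genes higher (Gabrb2, Grin2c, Grm3) and 12 lower, against 10.8% and 11.1% of all genes. Among the 12 were Gria3, Grin1, Grin2a, Grid1, Grik2, Grik5, Grm4, Gabra3 and Gabrd. Of the 38 estimates 30 were below 0, at a median of −0.086, against 27 at a median of −0.049 in wt. The shallow library, cKO ipsilateral 3, was at the lowest of all 12 for 9 genes. In that library 18 of the 38 were above the mean of the other libraries of its group, at a median deviation of −0.02.

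**Figure D4:**
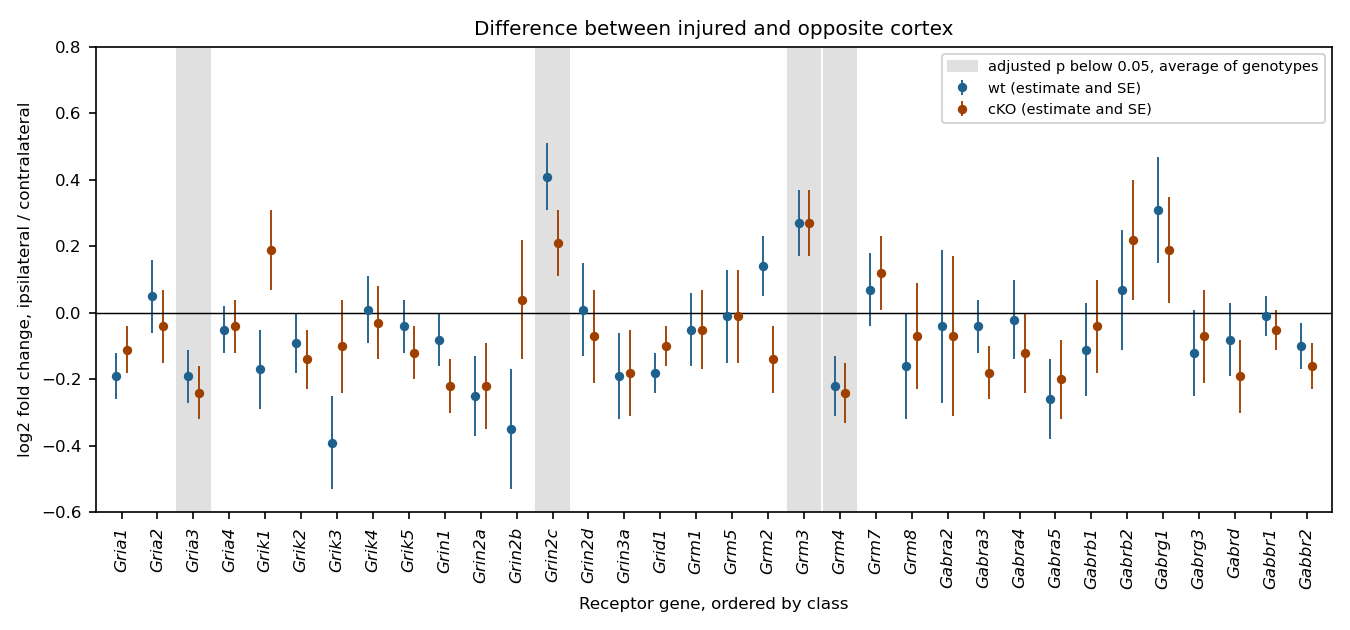
Log2 fold change of ipsilateral over contralateral CPM (y axis) for 34 of the 38 receptor genes, ordered by class, in wt (blue) and cKO (brown), as estimates with SE from edgeR; grey bands mark genes called in the average of both genotypes. Most points lie within 0.25 of 0, with Grin2c in wt (0.41) highest and Grik3 in wt (−0.39) lowest.

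Markers of cell types moved between the same libraries. No astrocyte or neuron marker was at 0 TPM in all 12 libraries. All 10 astrocyte markers had an average log2 difference above 0 (median 0.24), and 7 were called higher: Sox9 (0.82), Fgfr3 (0.29), Gja1, S100b and Slc1a2 (0.25 each), Slc1a3 (0.24) and Aldoc (0.20). Their summed level was 4450 to 5250 CPM in wt contralateral and 5490 to 5880 CPM in wt ipsilateral libraries, and 4460 to 4870 and 5210 to 5660 CPM in cKO. Of 14 neuron markers 12 were below 0 (median −0.11), and 5 were called lower: Tubb3 (−0.38), Eno2 (−0.19), Stmn2 (−0.18), Snap25 (−0.17) and Syt1 (−0.17). Their summed level was 15800 to 16700 and 15000 to 16400 CPM in wt and 15700 to 16300 and 14100 to 15100 CPM in cKO, contralateral first. The rises of Grin2c and Grm3 were of the size of the astrocyte median, and the median of the receptor genes was close to that of the neuron list. Averaged medians were also above 0 for markers of oligodendrocyte precursors (0.16), microglia (0.10), endothelial and mural cells (0.10) and oligodendrocytes (0.09). The microglia list was split. Of its 13 markers, 9 were above 0 and 4 below, with C1qb called higher (0.30) and Tmem119 called lower (−0.70). Medians were far larger for neutrophil (5.27) and red cell (4.2) markers. Scaffolds of glutamate synapses, described below, had a median of 0.01, and those of GABA receptors with auxiliary subunits −0.07. The part of these markers in the receptor results was not tested. In bulk tissue, fewer cells of a type and less RNA per cell cannot be told apart. Striatal markers, from tissue below the cortex, had a median of 0.35 in wt and 0.06 in cKO with none of 10 called.

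Genes that work with these receptors were counted from lists by role. Of 14 auxiliary subunits of AMPA and kainate receptors, 1 was called higher on average, Cacng4 (log2 0.29 ± 0.06 SE), which encodes a TARP, and Cnih2, a cornichon, was called in wt (0.25 ± 0.06 SE). Of 22 postsynaptic scaffolds and adaptors of glutamate synapses, 1 was called, Nsf, lower (−0.17 ± 0.04 SE); the most abundant, Dlg4, had −0.03 ± 0.04 SE. Of 14 scaffolds and auxiliary subunits of GABA receptors, 2 were higher, both GABA-B auxiliary subunits, Kctd16 (0.60 ± 0.17 SE) and Kctd12 (0.50 ± 0.11 SE), and 1 was lower, Lhfpl4 (−0.16 ± 0.05 SE), the partner of gamma-containing GABA-A receptors. The Kctd transcripts moved more than any receptor gene.

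Of 19 genes of transmitter synthesis and transport, 4 were higher: the glial glutamate transporters Slc1a2 (0.25 ± 0.07 SE) and Slc1a3 (0.24 ± 0.05 SE), which are also on the astrocyte list, glutamine synthetase Glul (0.23 ± 0.05 SE) and the GABA transporter Slc6a11 (0.32 ± 0.06 SE). The 2 lower were the glutamine transporter Slc38a1 (−0.23 ± 0.05 SE) and Slc6a13 (−0.54 ± 0.13 SE), a GABA transporter of the meninges and vessels. None of 5 further genes with related names, Grina and Glrb among them, was called by edgeR.

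The second question was whether receptor transcripts differed between genotypes. With the low-count filter edgeR called none. Without it, edgeR called Gabra2 and Grin2b ipsilaterally, among 223 genes in all, and Gabra2 contralaterally, among 96. In ipsilateral cortex 0 of 38 were called (0% of all genes), 1 had an unadjusted p under 0.05, and DESeq2 and limma-voom called 0 of them. Over all genes, 987 had an unadjusted p under 0.05 with edgeR, and DESeq2 called 12. The receptor gene with an unadjusted p under 0.05 was Gabbr2, the GABA-B subunit that couples to G proteins, at 470, 431 and 441 CPM in wt and 372, 399 and 424 CPM in cKO. The groups were apart (log2 −0.17 ± 0.07 SE, edgeR unadjusted p = 0.0315 and adjusted p = 0.806), but on the TPM scale, where all genes shifted by a median of 0.161, the estimate was 0.02. Of the 38 estimates 26 were below 0 with TMM and 2 on the TPM scale, so no direction is given. In contralateral cortex 0 of 38 were called (0% of all genes), 0 had an unadjusted p under 0.05 with edgeR, 0 with DESeq2 and 1 with limma-voom, and none was called by the other 2 tools. Over all genes, 455 had an unadjusted p under 0.05, and DESeq2 called 3. Estimates for the 38 ran from −0.48 to 0.16. Gabbr2 there measured 483, 473 and 485 CPM in wt and 433, 484 and 415 CPM in cKO, with overlap. Grin2b, called ipsilaterally without the filter (adjusted p = 0.00208), measured 238, 183 and 204 CPM in wt and 297, 219 and 292 CPM in cKO on that side, with overlap (log2 0.37 ± 0.18 SE, edgeR adjusted p = 0.866 with the filter).

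Gabra2, an alpha subunit of receptors at axon initial segments, had the largest difference between genotypes on both sides. It measured 67.3, 62.9 and 87.4 CPM in wt contralateral libraries 1 to 3 and 40.3, 70.1 and 46.5 CPM in cKO contralateral ones. Ipsilaterally it measured 75.3, 65.8 and 70.8 CPM in wt and 33.2, 72.2 and 42.9 CPM in cKO. On each side cKO libraries 1 and 3 were below every wt library, and cKO library 2 was within the wt range. Libraries of the same number may share an animal, so the sides may not be independent. The cKO difference was −0.48 ± 0.24 SE on the log2 scale contralaterally (edgeR unadjusted p = 0.0631, adjusted p = 1.0) and −0.50 ± 0.24 SE ipsilaterally (0.0538 and 0.866). Without the low-count filter edgeR called it on both sides (adjusted p = 0.000152 contralaterally), and DESeq2 did not (unadjusted p = 0.133 and 0.109). Without cKO ipsilateral library 2 the ipsilateral estimate was −0.92 (edgeR adjusted p = 0.443), without library 1 −0.27, and the contralateral estimate was −0.74 without cKO contralateral library 2, −0.31 without library 1 and −0.32 without wt contralateral library 3. Between sides Gabra2 differed by −0.04 ± 0.23 SE in wt and −0.07 ± 0.24 SE in cKO. As background, Gabra2 mRNA is known to differ between inbred mouse strains, and the labels give no strain.

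Gabra2 lies in a cluster of 4 GABA-A genes that spans 1.4 Mb of chromosome 5 (70751047 to 72149037, GRCm38), in the order Gabrg1, Gabra2, Gabra4 and Gabrb1. Its neighbours are described because of Gabra2 and were chosen after their values had been seen. In cKO, Gabrg1 measured 15.9, 19.8 and 13.3 CPM contralaterally and 17.7, 20.9 and 17.0 CPM ipsilaterally, and Gabra4 measured 109, 118 and 100 CPM and 94.3, 114 and 90.8 CPM. In both, as in Gabra2, library 2 was the highest of 3 on each side, by smaller margins. Gabrb1 did not have this order, at 89.1, 83.6 and 84.9 CPM and 89.2, 84.8 and 75.6 CPM. Estimates between sides differed in sign among these neighbours: the average was 0.25 for Gabrg1, −0.05 for Gabra2, −0.07 for Gabra4 and −0.08 for Gabrb1. None was called by edgeR with the low-count filter, all 12 libraries and no replicate block. With the replicate block within genotype, Gabrg1 was called.

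**Figure D5:**
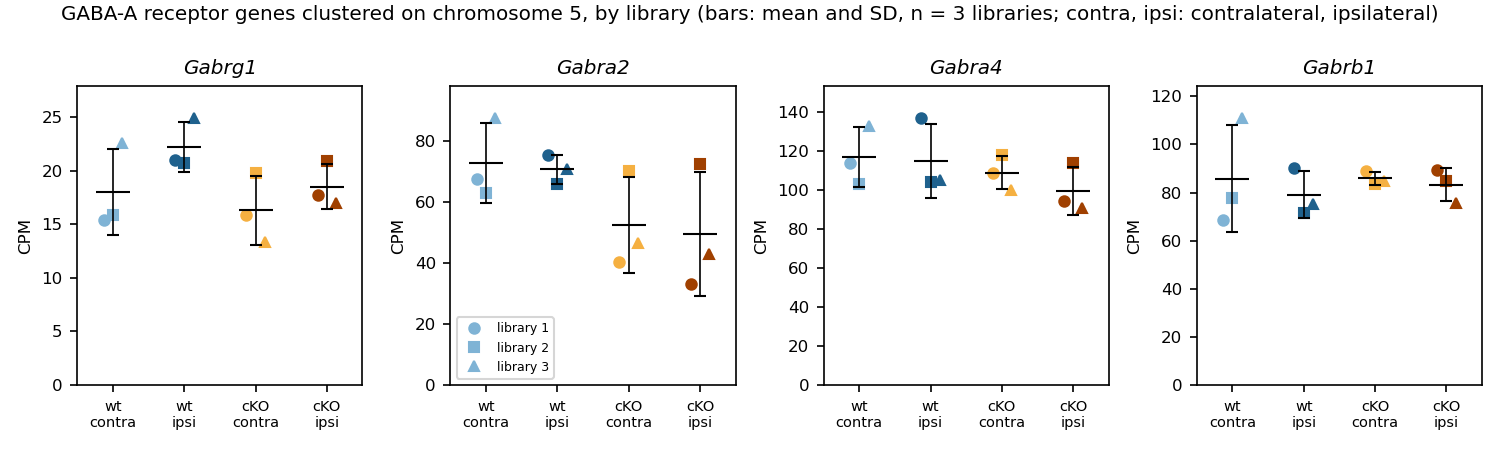
CPM (y axis, from 0) of Gabrg1, Gabra2, Gabra4 and Gabrb1, the clustered GABA-A genes of chromosome 5, in each library by group; symbols give the library number and bars the mean and SD of 3 libraries. Gabra2 in cKO libraries 1 and 3 lies between 33.2 and 46.5 CPM on both sides and in library 2 at 70.1 and 72.2 CPM.

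Lastly, the difference of the injury responses (cKO minus wt) asked whether the change between sides depended on genotype. edgeR called 0 of 38 receptor genes (0% of all genes), with 0 at an unadjusted p under 0.05, and DESeq2 and limma-voom called 0. Over all genes, 381 had an unadjusted p under 0.05, and DESeq2 called 0. Estimates for the 38 ran from −0.28 for Grm2 to 0.39 for Grin2b (0.39 ± 0.25 SE). The smallest p was that of Grik1, a kainate subunit of interneurons, at 12.6, 15.4 and 13.5 CPM against 11.9, 11.7 and 13.3 CPM in wt and 11.6, 13.6 and 10.9 CPM against 13, 15.4 and 12.4 CPM in cKO, contralateral first. The sides overlapped in both genotypes, and the response differed by 0.36 ± 0.17 SE on the log2 scale (edgeR unadjusted p = 0.0503, adjusted p = 1.0). For the genes called on average the difference was −0.20 ± 0.14 SE for Grin2c, 0.00 ± 0.14 SE for Grm3, −0.05 ± 0.11 SE for Gria3 and −0.02 ± 0.12 SE for Grm4. Each was within 2 SE of 0, which does not show that the responses were alike.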

How the data were processed

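Cortical RNA of 12 libraries was prepared with a stranded mRNA kit, per the labels' protocols. The submitters' processing notes name Trim Galore 0.6.4, STAR 2.7.1a, the build mm10, RSEM 1.2.28 and DESeq2 1.36.0. The authors deposited estimated counts per gene and, beside them, TPM values; RSEM, which writes both, is among the tools named, and the notes give no order or settings. Annotation and strand setting are not given in the sources used here. Identifiers were matched to GENCODE M21 (55227 of 55487, 99.5%), on GRCm38, the same assembly as mm10.

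The deposited estimated counts were whole numbers and were used as they stand. Genes were kept with filterByExpr (minimum count 10, minimum total 15), which left 16836. Counts were scaled by TMM and fitted with edgeR 4.0.16 (R 4.3.3) over the 4 groups, and p-values were adjusted over all genes by the Benjamini-Hochberg method (threshold 0.05) in each of 6 comparisons. Depth was 7958931 to 33567194 counts, and p-values and SEs come from 3 libraries a group. Alternatives used limma 3.58.1, DESeq2 1.42.0, other scalings and filters, pseudocounts of 1 and 0.1 on TPM, each library left out and replicate blocks. The code was tested on simulated data. The receptor genes and all lists were chosen with earlier results of these data known. Full values are given for genes called in any comparison, the highest by TPM of each class, the smallest p of each comparison and genes without overlap between sides in both genotypes; list genes are named where called, with at most 2 others per list by level. For 4 receptor genes single values are not given here; counts over the 38 receptor genes include them.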

Additional observations from a re-analysis of the deposited data

How the results depend on the processing

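Counts of receptor genes called moved as follows. In wt, where 1 was called, the count was 0 with library totals, 3 without the low-count filter, 0 by limma on log2(TPM + 1) and on log2(TPM + 0.1), 0 in a fit of the 2 groups compared and 0 to 1 when each library was left out. In cKO (0 called) it was 0 to 2 when each library was left out. For the average (4 called) it was 8 without the filter, 0 by both limma fits on TPM, 1 to 7 when each library was left out and 7 without wt contralateral library 3 and cKO ipsilateral library 3 together. Between genotypes (0 called) it was 2 ipsilaterally and 1 contralaterally without the filter. The cause was not tested. Over all genes, the wt count of 491 became 861 when wt contralateral 3 was left out, 250 for wt contralateral 2, 281 for wt ipsilateral 2 and 310 for wt ipsilateral 3. The cKO count of 461 became 277 for cKO ipsilateral 2 and 280 for cKO contralateral 1. The averaged count of 1350 became 2075 for wt contralateral 3, 876 for wt ipsilateral 2 and 883 for cKO contralateral 1. Without the filter these were 991, 968 and 1929, and 223, 96 and 72 for the ipsilateral, contralateral and difference comparisons, where the count was 0 with it; on log2(TPM + 1) the first 3 were 139, 174 and 404, and DESeq2 called 766 in wt.

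Values near 0 changed sign. The ipsilateral genotype difference of Gabbr2 was 0.02 in both limma fits on TPM. The average between sides of Gria2 was −0.03 with library totals, −0.0013 and −0.0015 in the TPM fits, and −0.04 to 0.09 when each library was left out. That of Grm5 was 0.03 in the TPM fits, −0.07 to 0.10 when each library was left out and 0.12 without the pair named above. That of Grm7 was −0.02 in the TPM fits.

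Same-numbered contralateral and ipsilateral libraries correlated at −0.002 to 0.094 after group means were removed, and the numbers were not taken as pairs. A low correlation cannot exclude that a number names 1 animal sampled on both sides. With the replicate block, 4 receptor genes were called on average and 0 in wt (Grin2c adjusted p = 0.0549, edgeR); with the replicate block within genotype, 5 and 1 were called, Gabrg1 being the added one. Depth limits the rarest genes most: Grin2d had 98 and Grik1 100 counts in their lowest library.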
